A study of Homo sapiens with 24 samples.

Results

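The 6 genes MET, HGF, EZR, RDX, MSN and NF2 encode the receptor, its ligand and the cytoskeletal proteins that are reported to act with CD44v6 at the cell surface. They were taken by exact symbol from the 35993 genes of the deposited count table, and all 6 were present. RNA had been sequenced from 24 libraries of J82 and RT-112, which are human bladder cancer cell lines, in 8 groups of 3 biological replicates. In each line the groups were parental cells, which the labels call the control for CD44 and CD44v6, and cells labelled CD44 Low, CD44 High and CD44v6. No treatment or time is given for any group. How the 3 other kinds of cells were obtained, and whether any is a single clone, is not given in the labels, so each is described by its label.

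CD44 is a hyaluronan receptor, and its v6 isoforms carry an alternatively spliced exon in the extracellular part. These isoforms are known as co-receptors that help HGF, a secreted growth factor, to switch on the receptor tyrosine kinase MET, which drives scattering, motility and growth of epithelial cells. The CD44 tail binds ezrin (EZR), radixin (RDX) and moesin (MSN), known together as the ERM proteins, which tie membrane proteins to actin filaments once they are phosphorylated. Merlin, the product of NF2, is related to the ERM proteins, competes with them for CD44 and acts upstream of the Hippo pathway as a tumour suppressor. Counts per gene symbol do not separate isoforms, so the CD44 values below are for all CD44 transcripts, and phosphorylation of the proteins was not measured.

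Libraries held 16752825 to 24419670 counts, and 18891 to 20555 genes had at least 1 count. Levels are given as CPM, a gene's share of the counts of its library after scaling between libraries, and differences as log2 fold changes. A gene was called at an edgeR quasi-likelihood adjusted p under 0.05. In RT-112, 2 libraries stood apart from their groups on the first principal component, which held 28.3% of the variance of that line: CD44 High replicate 3 scored 3.72, below the 38.5 and 36.6 of replicates 1 and 2. The library labelled CD44v6 replicate 3 scored 41.1, above 12.9 and 11.6. CD44v6 replicate 3 thus lay with CD44 High replicates 1 and 2. CD44 High replicate 3 lay between the parental libraries (-2.30, -6.71 and -11.1) and CD44v6 replicates 1 and 2. Whether these libraries were exchanged was not tested, and the RT-112 values of CD44 High and CD44v6 below depend on their labels. Each label was kept, and results of RT-112 are also given without both libraries where this changes a call. Both lines expressed 5 of 5 epithelial markers above 1 CPM, but the median of EPCAM was 1.88 CPM in J82 and 331 CPM in RT-112, and that of CDH1 was 2.15 and 337 CPM. Of 5 urothelial markers, 1 passed 1 CPM in J82 (PPARG, median 35.9 CPM) and 4 in RT-112, with UPK3A at 0 in both. All 4 mesenchymal markers passed 1 CPM in J82 and 3 of 4 in RT-112, with medians of 456 and 1.58 CPM for VIM and 342 and 381 CPM for FN1. Of 3 fibroblast markers, 2 passed in J82 (COL1A2, median 40.6 CPM, and COL1A1, 1.31) and 1 in RT-112 (COL1A1, 2.98), and DCN was at 0 in both. The leukocyte marker PTPRC reached at most 0.155 CPM in any library, and the endothelial marker PECAM1 at most 0.116 CPM in J82 and 2.62 CPM in RT-112. The part of these markers in the results was not tested.

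CD44 itself averaged 446 ± 46.4 CPM (SD, n = 3 for this and every group below) in J82 parental cells, 275 ± 25.6 in CD44 Low, 741 ± 31.3 in CD44 High and 810 ± 229 in CD44v6. In RT-112 the averages were 318 ± 27.9, 140 ± 17.9, 418 ± 75.7 and 440 ± 71.8 CPM. CD44 High exceeded CD44 Low by 1.39 on the log2 scale in J82 (edgeR adjusted p = 0.000120) and by 1.61 in RT-112 (edgeR adjusted p = 7.39e-05).

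**Figure D1:**
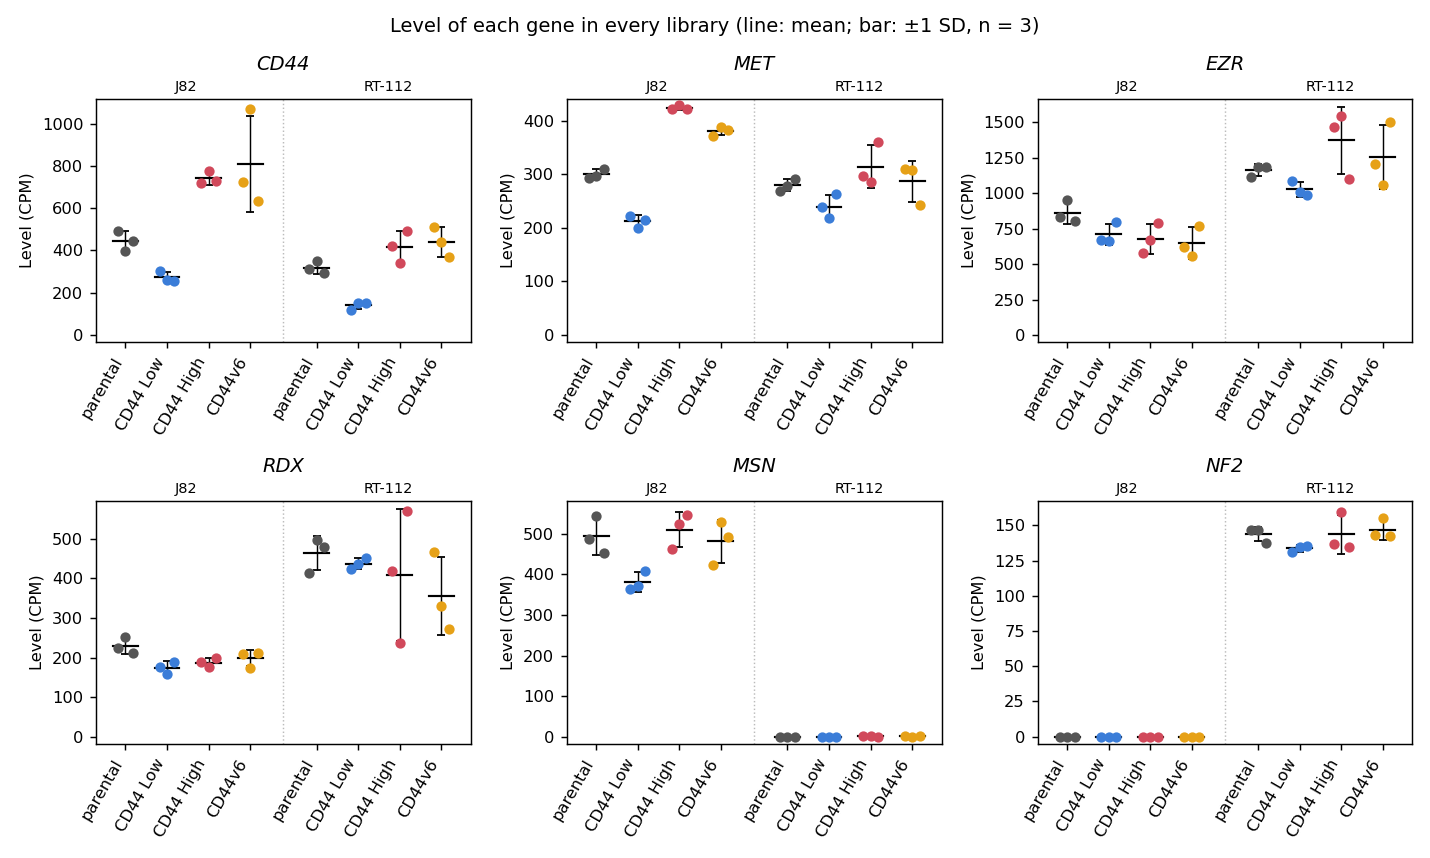
Level of CD44, MET, EZR, RDX, MSN and NF2 in each of the 24 libraries, in CPM, by line and group. Points are libraries, horizontal lines are group means and vertical bars are 1 SD. The MET points of the 4 J82 groups do not overlap, MSN is near 0 in RT-112 and NF2 is near 0 in J82.

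MET was the member that differed most often between the groups of a line: it was called in 6 of 12 within-line comparisons, 5 of them in J82. The share of all genes called ran from 0 to 16% over these comparisons. How many genes were called as often as MET was not counted. EZR, RDX and MSN gave few calls within a line, and NF2 and HGF gave none. The sharpest contrast was between the lines, where MSN transcripts were almost restricted to J82 and NF2 transcripts to RT-112. Comparisons within a line share their libraries and are not independent of each other. P-values set a difference between groups against the spread between replicates. That spread is estimated over all groups of a fit, with information shared across genes.

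Of the 6 members, 4 had enough counts to be tested in J82 (MET, EZR, RDX and MSN) and 5 in RT-112, where NF2 is added and MSN passed only through its CD44 High and CD44v6 libraries. In J82, CD44 Low against parental cells gave calls for MET and RDX, 2 of 4 tested members, against 5.34% of all 15951 genes tested. CD44 High against parental cells gave 1 call, MET, against 2.94% of genes, and CD44v6 against parental cells gave 1 call, also MET, against 2.6%. CD44 High against CD44 Low gave 2 calls, MET and MSN, against a background of 15.7% of genes. CD44v6 against CD44 Low gave 1 call, MET, against 9.58%. Between CD44v6 and CD44 High no member was called, and 0% of genes were, although 1536 genes, MET among the members, had an unadjusted p under 0.05, and DESeq2 called 74 genes but no member.

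The RT-112 step from CD44 Low to CD44 High gave calls for MET, EZR and MSN, where 16% of the 15645 genes tested were called. CD44v6 against CD44 Low gave 1 call, MSN, against 16% of genes. The 2 MSN calls are set aside below because the CD44 Low group had no MSN count, and the second was lost without both libraries that stand apart (edgeR adjusted p = 0.0628). No member was called in CD44 Low against parental cells (3.2% of genes), CD44 High against parental cells (0.511%) or CD44v6 against parental cells (0.614%). Of the members in these 3 comparisons, only MSN in the first had an unadjusted p under 0.05 or a DESeq2 call, again against a CD44 Low group at 0. CD44v6 against CD44 High had 0% of genes called by edgeR, with 665 genes at an unadjusted p under 0.05, 2 genes called by DESeq2 and no member under that p or called by either tool.

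**Figure D2:**
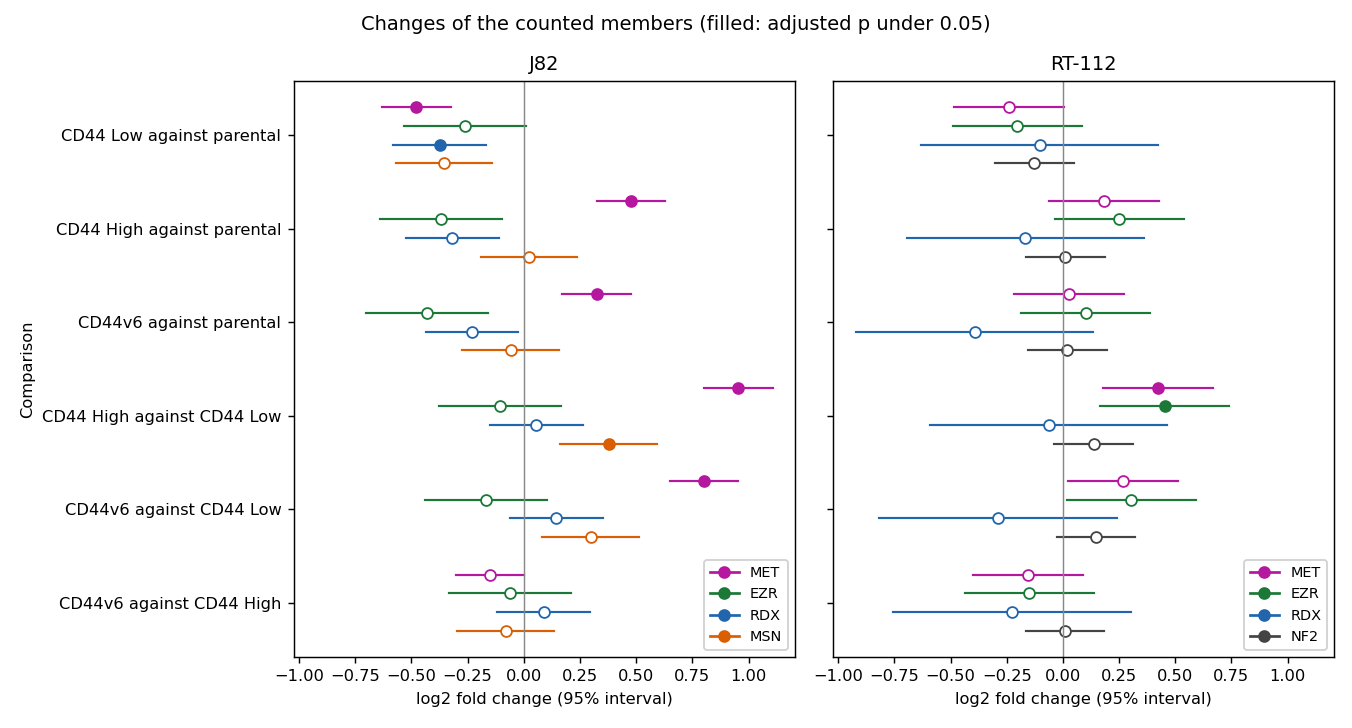
Log2 fold change of the well-counted members in the 6 comparisons of each line, with 95% intervals; filled points were called at an edgeR adjusted p under 0.05 and open points were not. MSN is not drawn for RT-112 and NF2 was not tested in J82. MET in J82 has 5 filled points, from -0.48 to 0.95.

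The ligand HGF had a count of 0 in all 24 libraries. Over their 472583181 counts this allows a level of up to 0.00636 CPM (3 counts of the total, counting error only). HGF is made mainly by stromal cells in tissues, and these cultures held no transcript of it at this depth. No comparison of HGF was possible.

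In J82 the libraries of the 4 groups did not overlap in the level of the receptor MET, but the test did not separate CD44v6 from CD44 High. MET stood at 294, 297 and 310 CPM in the 3 parental libraries, at 223, 200 and 215 in CD44 Low, at 422, 429 and 421 in CD44 High, and at 371, 388 and 383 in CD44v6. CD44 Low was lowest and CD44 High highest, and none of the 6 pairs of J82 groups overlapped. How many of all genes separate as fully was not counted, for MET or for any other member. Lack of overlap is thus a description only, here and for every member below. Folds given with a test are from the fit of 1 line, which is scaled over its 12 libraries and so differs slightly from the ratio of the levels. The fitted level of CD44 High was 1.94-fold that of CD44 Low, a log2 difference of 0.95 (SE 0.0709, edgeR adjusted p = 1.85e-06). CD44v6 exceeded CD44 Low 1.74-fold, by 0.80 on the log2 scale (edgeR adjusted p = 1.10e-05).

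Against parental cells, MET fell by 0.48 on the log2 scale in J82 CD44 Low (SE 0.0705, edgeR adjusted p = 0.00178) and rose by 0.48 in CD44 High (SE 0.0703, edgeR adjusted p = 0.00342). The difference of CD44v6 from parental cells was smaller, at 0.32 (edgeR adjusted p = 0.0327). That last call was lost in 6 of 12 fits that left out 1 library: without parental replicates 1, 2 or 3 (adjusted p = 0.175, 0.159 and 0.086), CD44 High replicate 1 (0.0519), or CD44v6 replicates 1 or 2 (0.062 and 0.0759). It was also lost with no filter on low counts (0.0526), on the libraries of the 2 groups alone (0.0885) and in a fit over all 24 libraries (0.0551). CD44v6 against CD44 High was not called for MET (log2 difference -0.15, 95% interval -0.30 to -0.00, edgeR adjusted p = 0.518), although their libraries did not overlap.

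RT-112 held MET at a like level but with smaller differences. MET stood at 269, 279 and 291 CPM in parental cells, at 238, 218 and 263 in CD44 Low, at 296, 286 and 361 in CD44 High, and at 310, 309 and 243 in CD44v6. The order of the group means was again CD44 Low, parental, CD44v6 and CD44 High, and the CD44v6 libraries overlapped those of every other group. The order of CD44v6 and CD44 High rests on the libraries that stand apart. Without both, CD44v6 against CD44 High turned to 0.0652 for MET (edgeR adjusted p = 0.884). With every library kept, CD44 High was 1.34-fold above CD44 Low, by 0.42 on the log2 scale (SE 0.113, edgeR adjusted p = 0.0234), with no overlap. The MET call was lost without RT-112 CD44 Low replicate 1 (adjusted p = 0.0763), CD44 Low replicate 2 (0.0974) or CD44 High replicate 3 (log2 difference 0.31, adjusted p = 0.0636), and also with no filter (0.0604) or on the libraries of the 2 groups alone (0.0717).

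CD44v6 against CD44 Low gave 0.27 for MET in RT-112 (edgeR adjusted p = 0.124). Without both libraries that stand apart it gave 0.38 (edgeR adjusted p = 0.0227), and CD44 High against CD44 Low gave 0.31 (0.0292). In these fits, chosen after seeing the data, 10.2 and 20.8% of all genes were called. Differences of MET from RT-112 parental cells were -0.24 in CD44 Low (edgeR adjusted p = 0.270), 0.18 in CD44 High (0.546) and 0.03 in CD44v6 (0.948). None of the 3 was called.

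A contrast over all 24 libraries and 17438 genes compared the steps of the 2 lines. The step of MET from CD44 Low to CD44 High was larger in J82 than in RT-112 by 0.56 on the log2 scale (SE 0.133, edgeR adjusted p = 0.00934), where 10.7% of genes differed between the lines in this step. It was called in each of 24 fits that left out 1 library. For CD44v6 against CD44 Low the difference was 0.52 (edgeR adjusted p = 0.0199), against 7.52% of genes. This MET call was lost without RT-112 CD44 Low replicate 3 (adjusted p = 0.0522) or CD44v6 replicate 3 (0.0659), and without both libraries that stand apart it was 0.42 (0.0279). For CD44v6 against parental cells the difference was 0.25 (edgeR adjusted p = 0.393), no member was called by edgeR, with 0.138% of genes called. MET was not called between the parental lines (log2 difference of RT-112 from J82 -0.10, edgeR adjusted p = 0.349).

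Across the 24 libraries, the genes with the profile closest to MET, after centring each line on its own mean, were OSBPL3, an oxysterol-binding protein, and TIMP3, an inhibitor of matrix metalloproteinases. The likeness measure is the root mean square difference of log2 CPM, which was 0.114 for OSBPL3 and 0.126 for TIMP3, against a median of 0.342 over 8734 genes and a spread of MET itself of 0.303. HNRNPA1P33 came to 0.126 as well, but as a near-identical pseudogene its counts are uncertain. OSBPL3 averaged 26.6 ± 2.72 CPM in J82 parental cells, 18.7 ± 1.87 in CD44 Low, 41.3 ± 3.43 in CD44 High and 38.3 ± 2.91 in CD44v6. Like MET, it was lowest in CD44 Low and highest in CD44 High. These genes were picked for their profile, so no test is given.

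The ERM genes are compared with each other as CPM per kilobase of exon, because longer transcripts collect more reads. In J82 parental cells EZR led with 258 ± 23.1 CPM per kb, followed by MSN with 82.9 ± 7.74, MET with 42.7 ± 1.25 and RDX with 26.9 ± 2.36. In RT-112 parental cells EZR stood at 348 ± 12.4, RDX at 54.3 ± 5.06, MET at 39.7 ± 1.56 and NF2 at 20.1 ± 0.726 CPM per kb, and MSN at 0.0438. EZR was thus the main ERM gene of both lines, and the next of the ERM genes was MSN in J82, ahead of RDX, and RDX in RT-112. In J82, the order of MET and RDX depends on the length used: with the longest transcript in place of all exons RDX came to 51.1 and MET to 45.3 CPM per kb. The 3 genes summed to 368 CPM per kb in J82 parental cells and 402 in RT-112 parental cells.

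As a share of that sum, EZR took 70.1% in J82 parental cells, MSN 22.5% and RDX 7.32%. The MSN share was 21.6% in J82 CD44 Low, 27.6% in CD44 High and 27.3% in CD44v6. In RT-112 parental cells EZR took 86.5% and RDX 13.5%, and MSN 0.0106%. The RDX share ran from 5.67 to 16.9% over the 3 RT-112 CD44 High libraries, a wider range than in any other group. In cultures measured in bulk, fewer cells with a transcript and less of it per cell cannot be told apart.

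**Figure D3:**
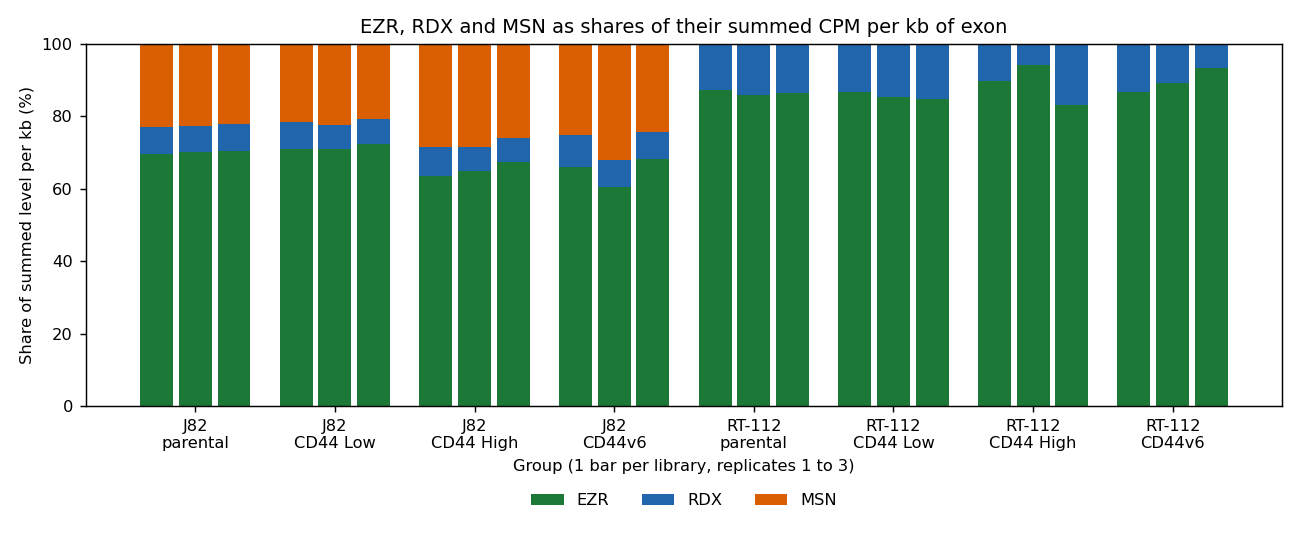
Share of EZR, RDX and MSN in their summed CPM per kb, in percent, for each library by line and group. EZR is the largest share in each library; the MSN share is seen only in J82, and RDX fills the rest in RT-112.

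Ezrin, the ERM protein typical of epithelial cells, was encoded at 831, 950 and 806 CPM in J82 parental cells. EZR stood at 670, 662 and 793 CPM in J82 CD44 Low, at 580, 667 and 789 in CD44 High, and at 620, 556 and 771 in CD44v6. All 3 parental libraries were above the 9 others, but no J82 comparison of EZR was called: the log2 differences from parental cells were -0.26 in CD44 Low (edgeR adjusted p = 0.241), -0.37 in CD44 High (0.151) and -0.43 in CD44v6 (0.0903). The last of these was called by DESeq2 (adjusted p = 0.0228), with a replicate block (0.0482) and without CD44v6 replicate 3 (0.0283). In RT-112, EZR stood at 1115, 1186 and 1186 CPM in parental cells, at 1086, 1007 and 983 in CD44 Low, at 1468, 1546 and 1101 in CD44 High, and at 1203, 1060 and 1499 in CD44v6. CD44 High replicate 3 and CD44v6 replicate 3, which stand apart, were also the lowest and the highest EZR library of their groups.

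The fitted EZR level of RT-112 CD44 High was 1.37-fold that of CD44 Low, by 0.45 on the log2 scale (SE 0.133, edgeR adjusted p = 0.0354), with no overlap between the groups. The EZR call held in 4 of 12 fits that left out 1 library. It was lost without any of parental replicates 1, 2 and 3, CD44 Low replicates 1, 2 and 3, or CD44 High replicates 1 and 2, with adjusted p from 0.0577 to 0.130. It was also lost with no filter (0.067), on the 2 groups alone (0.0652) and with a replicate block (0.0659). Without both libraries that stand apart the difference was 0.59 (edgeR adjusted p = 0.000227), CD44 High exceeded parental cells by 0.39 (0.0157) and CD44v6 was below CD44 High by -0.44 (0.0468). In these 3 comparisons 20.8, 4.24 and 0.333% of all genes were then called. The 2 libraries were left out after seeing the data and are the extreme EZR libraries of their groups. These values are thus a description and no support for the EZR call. The EZR step from CD44 Low to CD44 High differed between the lines by -0.53, J82 minus RT-112 (edgeR adjusted p = 0.0881), and by -0.67 without both libraries (0.0104), where 11.8% of genes were called. The difference of this step was also called without J82 CD44 High replicate 3 (-0.64, 0.0465) and without RT-112 CD44 High replicate 3 (-0.67, 0.0227).

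Radixin, the ERM protein best known from microvilli and from hair cell bundles, had the lowest transcript level of the ERM genes in J82. RDX stood at 225, 252 and 212 CPM in J82 parental cells, at 175, 159 and 190 in CD44 Low, at 188, 175 and 198 in CD44 High, and at 210, 174 and 211 in CD44v6. The parental libraries lay above every other J82 library. CD44 Low was 1.30-fold below parental cells, by -0.37 on the log2 scale (SE 0.0954, edgeR adjusted p = 0.0396). The RDX call was lost in 6 of 12 fits that left out 1 library: without parental replicates 1, 2 or 3 (adjusted p = 0.114, 0.192 and 0.0693), CD44 Low replicates 1 or 2 (0.098 and 0.123) or CD44 High replicate 1 (0.0561). It was also lost with no filter (0.0565) and in the fit over all 24 libraries (0.293). The RDX differences of -0.32 in CD44 High (edgeR adjusted p = 0.102) and -0.23 in CD44v6 (0.211) were not called, though the first was by DESeq2 (0.0264), on the 2 groups alone (0.0334) and without CD44v6 replicate 2 (0.0453).

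RT-112 libraries held RDX at 415, 497 and 478 CPM in parental cells, at 423, 436 and 452 in CD44 Low, at 419, 237 and 570 in CD44 High, and at 465, 330 and 273 in CD44v6. The CD44 High libraries alone spanned the lowest and the highest of all 12 values, and no RT-112 comparison of RDX was called. The RDX difference of CD44 High from CD44 Low was -0.06, and 0.20 without CD44 High replicate 2, and that of CD44v6 from CD44 High was -0.23, and 0.26 without both libraries that stand apart. In CD44 High replicate 3, RDX was the highest and EZR the lowest of its group. The parental lines differed: RDX was 2.02-fold higher in RT-112 than in J82, by 1.01 on the log2 scale (SE 0.199, edgeR adjusted p = 0.000138), in a comparison where 62% of 17438 genes were called. EZR was 0.43 higher in RT-112 parental cells (edgeR adjusted p = 0.0104), a call lost without J82 parental replicate 3 (0.0564). With MSN and NF2 below, 4 of 5 tested members differed between the parental lines.

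**Figure D4:**
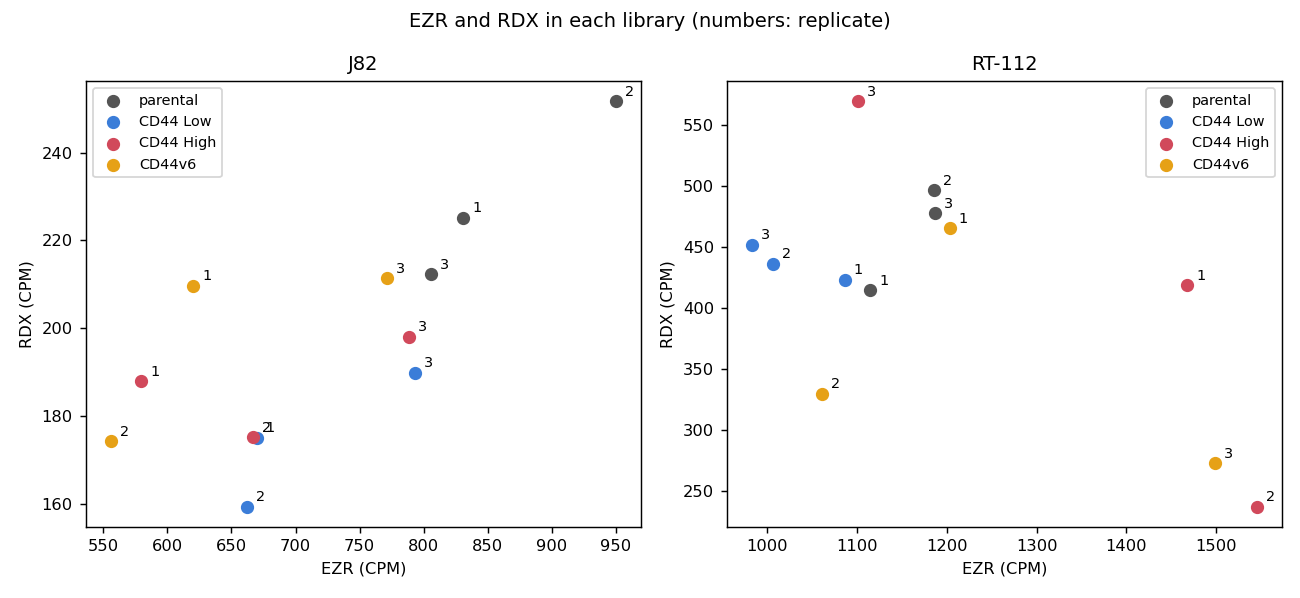
EZR against RDX level in each library, both in CPM, by line and group, with replicate numbers beside the points. The RT-112 CD44 High and CD44v6 libraries are spread along RDX from 237 to 570 CPM, wider than the J82 libraries.

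Moesin, the ERM protein typical of mesenchymal and endothelial cells and leukocytes, was well expressed only in J82. MSN stood at 487, 545 and 454 CPM in J82 parental cells, at 365, 370 and 408 in CD44 Low, at 462, 524 and 545 in CD44 High, and at 423, 528 and 492 in CD44v6. The CD44 Low libraries lay below all others of the line. CD44 High exceeded CD44 Low 1.30-fold, by 0.38 on the log2 scale (SE 0.0995, edgeR adjusted p = 0.0217). The MSN call was lost without CD44 Low replicates 1 or 2 (adjusted p = 0.0804 and 0.0563) or CD44 High replicates 2 or 3 (0.0739 and 0.0722), and in the fit over all 24 libraries (0.321). CD44 Low against parental cells gave -0.36 (edgeR adjusted p = 0.0582), which was called by DESeq2 (0.0154), with upper quartile scaling (0.0421), on the 2 groups alone (0.0378), with a replicate block (0.0274) and without CD44v6 replicate 2 (0.0220). CD44v6 against CD44 Low gave 0.30 for MSN (edgeR adjusted p = 0.0838), called by DESeq2 (0.0455), with a replicate block (0.0463) and without CD44v6 replicate 1 (0.0439).

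In RT-112, MSN had 0, 9 and 8 counts in the parental libraries, 0 in each CD44 Low library, 20, 34 and 5 in CD44 High, and 12, 3 and 16 in CD44v6. These are 107 counts in total, against 107687 in the 12 J82 libraries. The level in J82 was 1052-fold that in RT-112 (95% counting interval 870 to 1284) over all libraries. Against a floor of 3 counts over the CD44 Low group, the pooled MSN level of CD44 High was 22.5-fold. The same ratio was 11.1 for CD44v6 and 6 for parental cells. These ratios leave out the counting error of the higher group and the spread between libraries. Parental replicate 1 had 0 counts, as each CD44 Low library had, so the libraries of these groups overlapped. The ratio of CD44 High to parental cells was 3.75 (counting interval 2.15 to 6.86). A gene that is tested only because of the groups where it has counts had to differ, so the 2 RT-112 calls, and the 2 MSN calls of the line differences that rest on them, are not read as results. MSNP1, a processed pseudogene of MSN, had 26 to 60 counts in each J82 library and 0 in RT-112.

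Merlin transcripts showed the reverse pattern between the lines. NF2 had 1 count in the 12 J82 libraries together, in parental replicate 1, and 2300 to 3188 counts in each RT-112 library. The level in RT-112 parental cells was 8564-fold that in J82 parental cells, but with 1 count the 95% counting interval ran from 1537 to 338280. Both figures cover counting error only. Within RT-112, NF2 stood at 147, 147 and 138 CPM in parental cells, at 131, 134 and 135 in CD44 Low, at 136, 159 and 135 in CD44 High, and at 143, 155 and 142 in CD44v6. All 12 values lay between 131 and 159 CPM, and none of the 6 comparisons was called by edgeR, with log2 differences from -0.13 to 0.15. CD44 Low lay below parental cells in each library without passing the test (edgeR adjusted p = 0.431), and CD44 High against CD44 Low gave an edgeR adjusted p of 0.275.

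So complete a difference was rare among genes of that level. Of 1479 genes with at least the mean RT-112 level of NF2 (142 CPM), 12 had no more than 1 count in J82. Beside NF2 these were ITGB6, KRT4, KRT5, KRT13, CEACAM6, S100A9, LY6D, TCEAL9, ESRP1, TMPRSS4 and GRHL2. Of 288 genes with at least the J82 level of MSN (467 CPM), 5 had no more than 107 counts in RT-112: MSN, COL3A1, IFITM1, PSIP1 and SULF1.

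The bases before the transcription start of NF2 and MSN are shown because the transcripts of each of these members were nearly confined to 1 line. They are RefSeq promoters of build GRCh38.p14, 250 bases up to the start on the plus strand, with CpG pairs in capitals, since CpG density separates broadly active promoters from restricted ones in general. No DNA methylation or chromatin was measured here, and the start used in these cells is not known from counts per gene.
NF2, chr22:29603383-29603632: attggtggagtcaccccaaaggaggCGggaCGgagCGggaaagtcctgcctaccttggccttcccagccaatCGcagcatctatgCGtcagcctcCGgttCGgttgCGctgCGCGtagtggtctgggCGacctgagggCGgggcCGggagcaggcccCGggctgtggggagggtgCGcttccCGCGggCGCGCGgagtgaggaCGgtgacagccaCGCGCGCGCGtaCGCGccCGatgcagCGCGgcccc
MSN first start, chrX:65588127-65588376: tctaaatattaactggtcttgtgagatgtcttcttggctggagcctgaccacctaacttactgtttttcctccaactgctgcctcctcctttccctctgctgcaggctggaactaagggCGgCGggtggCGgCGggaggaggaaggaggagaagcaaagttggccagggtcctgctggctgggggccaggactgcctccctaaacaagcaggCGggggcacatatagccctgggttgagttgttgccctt
MSN second start, chrX:65667404-65667653: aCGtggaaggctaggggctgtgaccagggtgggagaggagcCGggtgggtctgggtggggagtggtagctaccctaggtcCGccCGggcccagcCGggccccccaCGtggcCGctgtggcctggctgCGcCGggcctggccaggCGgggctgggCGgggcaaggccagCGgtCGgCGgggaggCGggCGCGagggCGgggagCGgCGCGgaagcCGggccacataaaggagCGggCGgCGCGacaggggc
The NF2 stretch holds 31 CpG pairs, a number at or above that of 90.7% of 27305 promoters of the same length, whose median was 11. A second NF2 start holds 16 (61.2%). The MSN starts hold 5 (38.7%) and 26 (82.7%), so MSN has a CpG-rich and a CpG-poor start. A GC box, searched as GGGCGG on both strands, occurs 1 time in the NF2 stretch, 1 time in the first and 4 times in the second MSN stretch, and at least once in 42.3% of promoters. Of the other members, RDX has the densest start with 38 CpG pairs (97.5%), followed by EZR with 28 (86.2%) and MET with 24 (78.7%), and HGF has 6 (41.6%).

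Genes beside NF2 on chromosome 22 and beside MSN on chromosome X were looked at after these values were seen. NIPSNAP1 averaged 22.5 CPM in J82 and 56.1 in RT-112, THOC5 51.0 and 73.2, ASCC2 38.4 and 93.9, and MTMR3 28.0 and 58.0 CPM. These neighbours of NF2 had counts in both lines, at a lower level in J82. Next to MSN, LAS1L averaged 116 CPM in J82 and 98.3 in RT-112, YIPF6 55.7 and 38.4, and ZC4H2 11.8 and 0.327. ZC4H2 was thus low in RT-112 as MSN was, while LAS1L was expressed in both.

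The wider HGF and MET pathway was followed through a list of 35 genes, of which 30 had enough counts in J82 and 32 in RT-112. Between CD44 High and CD44 Low, 11 of 30 were called in J82 (6 higher, 5 lower; 36.7%, where the background is 15.7%) and 10 of 32 in RT-112 (7 higher, 3 lower; 31.2%, background 16%). The median log2 difference of the list was 0.02 in J82 and 0.16 in RT-112, against -0.02 and 0.02 for all genes tested. Between CD44v6 and CD44 Low, 6 of 30 were called in J82 (5 higher, 1 lower; background 9.58%) and 12 of 32 in RT-112 (8 higher, 4 lower; background 16%). Leaving out 1 library lowered the J82 count of CD44 High against CD44 Low to 7 (without CD44 Low replicate 1 or CD44 High replicate 2) and the RT-112 count to 6 (without CD44 Low replicate 1 or 2). The members and the list were chosen with results of these data known, so the counts describe the list and are no test of it.

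The list was read by role, first for proteins that sit beside MET in the membrane. Of 7 surface partners, 6 were called between J82 CD44 High and CD44 Low (3 higher, 3 lower), and 4 of 7 in RT-112, all higher, where 15.7 and 16% of all genes were called. ITGA6, the integrin alpha chain that pairs with ITGB4 as a laminin receptor, was called in both lines: it averaged 90.9 ± 5.43 CPM in J82 CD44 Low and 200 ± 7.19 in CD44 High, and 438 ± 24.2 and 875 ± 95.5 in RT-112. ITGA6 thus rose by 1.10 in J82 (SE 0.0904, edgeR adjusted p = 4.58e-06) and by 1.03 in RT-112 (SE 0.0886, edgeR adjusted p = 4.36e-05). CD44v6 against CD44 Low gave 0.98 and 0.87 for ITGA6 (edgeR adjusted p = 1.61e-05 and 0.000122), and CD44 Low against parental cells gave -0.64 and -0.55 (0.00133 and 0.00603).

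ITGB4, EGFR, ROCK1, ROCK2, SPINT1 and SPINT2 are named after their values were seen. ITGB4 averaged 7.14 ± 2.30 CPM in J82 CD44 Low and 2.88 ± 1.04 in CD44 High, a log2 difference of -1.35 (edgeR adjusted p = 0.0110, and 0.0570 without J82 CD44 Low replicate 1), whereas in RT-112 it averaged 201 ± 21.8 and 370 ± 74.0, a difference of 0.91 (0.00107). The 2 differences of ITGB4 have opposite signs, and their contrast was -2.24 (edgeR adjusted p = 7.33e-05). NRP1, a co-receptor of several growth factors, rose from CD44 Low to CD44 High by 0.47 in J82 (edgeR adjusted p = 0.00532) and by 1.56 in RT-112 (0.00199). The NRP1 step was larger in RT-112 (contrast -1.06, edgeR adjusted p = 0.0170), a call lost without J82 CD44 Low replicate 1 (0.0546), RT-112 CD44 Low replicate 2 (0.0683) or RT-112 CD44 High replicate 1 (0.0669). The J82 call of NRP1 was lost in the fit over all 24 libraries (0.109). EGFR, a receptor kinase that acts beside MET, rose by 0.82 in RT-112 (edgeR adjusted p = 0.000912) and had -0.05 in J82 (0.920), but the contrast of -0.84 was not called by edgeR (0.0521). DESeq2 called it (0.0250), as did edgeR with upper quartile scaling (0.0470), with a mean of at least 50 counts (0.0406), and without J82 CD44 Low replicate 3, J82 CD44v6 replicate 2 or 3, or RT-112 CD44 Low replicate 3 (0.00827 to 0.0303).

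Of 6 activators and inhibitors of HGF, 3 were tested in J82 and 2 called between CD44 High and CD44 Low, both higher (15.7% of all genes called), and 4 were tested in RT-112 and 1 called, lower (16%). PLAU, urokinase, a protease able to activate HGF, averaged 20.1 ± 0.352 CPM in J82 CD44 Low, 34.8 ± 1.79 in parental cells, 72.9 ± 10.5 in CD44 High and 61.6 ± 3.17 in CD44v6. CD44 High exceeded CD44 Low by 1.81 (SE 0.110, edgeR adjusted p = 3.80e-07) in J82, while PLAU in RT-112 gave -0.40 (0.359), a contrast of 2.23 (0.000149). Leaving out 1 library moved the RT-112 value of PLAU between -0.87 and -0.09, and it was called without CD44 High replicate 2 (-0.87, 0.0186). SPINT2, an inhibitor of HGF activators, rose by 1.44 in J82 (edgeR adjusted p = 0.000129), from 5.42 to 15.1 CPM, and stood at 455 and 417 CPM in the same RT-112 groups with no call. SPINT1, its relative, fell by 0.50 in RT-112 (edgeR adjusted p = 0.0221) and was below 1 CPM in J82. The SPINT1 call was lost without RT-112 CD44 Low replicate 1 or 2 or CD44 High replicate 1 or 3 (0.0562 to 0.0992), on the 2 groups alone (0.0813) and without both libraries that stand apart (0.0591).

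Among the adaptors and effectors downstream of MET, 1 of 12 was called between CD44 High and CD44 Low in J82 and 2 of 12 in RT-112, against 15.7 and 16% of all genes. PIK3R1, the regulatory subunit of PI 3-kinase, was the gene called in both lines: -0.40 in J82 (edgeR adjusted p = 0.0482) and -0.73 in RT-112 (0.00498). Of the fits that left out 1 library, the J82 call of PIK3R1 held without CD44 High replicate 1 or CD44v6 replicate 2 and was lost in the others (0.0512 to 0.194), as with upper quartile scaling (0.0544), no filter (0.0800) and the 2 groups alone (0.0851). CBLB, a ubiquitin ligase that marks receptor kinases for degradation, fell by 1.5 on the log2 scale in J82 (SE 0.174, edgeR adjusted p = 8.54e-05), from 29.9 ± 7.03 CPM in CD44 Low to 10.9 ± 0.349 in CD44 High. CBLB in RT-112 gave 0.18 (edgeR adjusted p = 0.528), a contrast of -1.66 (0.000205). CBLB is 1 of 8 genes listed for turnover, shedding and phosphatases. In J82 this comparison called 2 of the 8, in opposite directions (15.7% of all genes). The other was LRIG1, named after its values were seen, which rose by 1.10 (edgeR adjusted p = 0.000264). LRIG1 also rose in J82 CD44v6 against CD44 Low, by 1.18 (0.000221). The RT-112 step called 3 of the 8, with 1 of them falling and CBLB not among them (16%). RON (MST1R) and its ligand MST1, the sister pair of MET and HGF, gave no call: MST1R and MST1 were both too low to test in J82, and 1 of the 2 was tested in RT-112.

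The partners of the ERM proteins and merlin were followed through a list of 31 genes, which shares ICAM1 with the first. Between CD44 High and CD44 Low, 10 of 29 tested were called in J82 (6 higher, 4 lower; 34.5%) and 3 of 27 in RT-112 (2 higher, 1 lower; 11.1%), where 15.7 and 16% of all genes were called. Between CD44v6 and CD44 Low, 9 of 29 were called in J82 (7 higher, 2 lower; background 9.58%) and 8 of 27 in RT-112 (2 higher, 6 lower; background 16%). Leaving out both RT-112 libraries that stand apart gave 5 calls for the first comparison, where the background rose to 20.8%, and 4 for the second, where it was 10.2%. Leaving out 1 library, the RT-112 counts ran from 0 (without CD44 High replicate 1) to 5 (without CD44 Low replicate 3) in the first and from 0 (without CD44 Low replicate 1) to 8 in the second, which also fell to 5, 3, 2 and 1 without parental replicate 1, CD44 Low replicate 2, and CD44v6 replicates 2 and 3. In the first it was 1 without any of 8 others, namely each parental library, CD44 Low replicates 1 and 2, CD44 High replicate 2, and CD44v6 replicates 1 and 2. The J82 count of the first was 6 without CD44 High replicate 1.

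SLC9A3R2, which encodes the scaffold NHERF2 that ERM proteins bind, had the largest called increase of the list in J82 CD44 High against CD44 Low. It averaged 19.6 ± 4.99 CPM in CD44 Low, 54.4 ± 2.68 in parental cells, 87.8 ± 9.33 in CD44 High and 85.9 ± 9.42 in CD44v6. CD44 High exceeded CD44 Low by 2.13 (edgeR adjusted p = 1.05e-06) and CD44 Low was below parental cells by -1.46 (0.000162). SLC9A3R2 in RT-112 gave -0.42 for the first comparison (edgeR adjusted p = 0.0853; -0.59 and called at 0.0125 without CD44 Low replicate 3), and the contrast of the lines was 2.58 (2.53e-07).

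Of the kinases that phosphorylate ERM proteins or pass RHOA signals, ROCK2 rose in J82 CD44 High against CD44 Low by 0.35 (edgeR adjusted p = 0.0225) and in CD44v6 by 0.67 (0.000507). The first ROCK2 call was lost without J82 CD44 Low replicate 2 or 3 or CD44 High replicate 1 (0.0533 to 0.109) and on the 2 groups alone (0.0505), and both J82 calls in the fit over all 24 libraries (0.346 and 0.0759). In each of these J82 comparisons 2 of the 7 genes of this role were called, both higher (15.7 and 9.58% of all genes). In RT-112 CD44v6 against CD44 Low, ROCK2 fell by 1.09 (edgeR adjusted p = 0.0268) and ROCK1 by 0.98 (0.0216). There 3 of the 7 were called, all lower, against 16% of all genes. Both phosphatase genes of the list, named after their values were seen, were also called lower: PPP1R12A (-0.68, edgeR adjusted p = 0.0251) and PPP1CB (-0.32, 0.0487). ROCK2 averaged 97.2 ± 3.95 CPM in RT-112 CD44 Low and 45.2 ± 12 in CD44v6. The RT-112 call of ROCK2 was lost without any CD44 Low library or CD44v6 replicate 2 or 3 (0.0533 to 0.112) and without both libraries that stand apart (0.0670), and that of ROCK1 without CD44 Low replicate 1 or 3 or CD44v6 replicate 2 or 3 (0.0608 to 0.0859).

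On the merlin and Hippo side, AMOTL1, an angiomotin that binds merlin, was called in both lines for CD44v6 against CD44 Low: 0.57 in J82 (edgeR adjusted p = 0.0200) and 0.87 in RT-112 (0.0134). The AMOTL1 calls were lost without J82 CD44 Low replicate 3 (0.0699) and without RT-112 CD44 Low replicate 1 (0.0601), and the J82 call also on the 2 groups alone (0.133) and over all 24 libraries (0.0516). AMOT, its relative, fell in J82 CD44 High against CD44 Low by 1.40 (edgeR adjusted p = 0.00518) and had no count in RT-112. STK3, an upstream kinase of the Hippo pathway, had the largest called decrease of the list between CD44 High and CD44 Low of RT-112 at -0.35 (edgeR adjusted p = 0.0499). Of the fits that left out 1 library, the STK3 call held in those without a parental library, CD44 Low replicate 3 or CD44v6 replicate 3 (0.0516 to 0.208 without the others). It was also lost on the 2 groups alone (0.117), with a replicate block (0.0845) and without both libraries that stand apart (0.0503). SELPLG, a mucin-like ligand that binds ERM proteins, had the largest called increase there at 2.87 (edgeR adjusted p = 0.0492), at levels of 0.175 ± 0.156 and 1.36 ± 1.21 CPM. Of the fits that left out 1 library, the SELPLG call held in those without CD44 High replicate 3 or CD44v6 replicate 3 (0.0566 to 0.193 without the others). It was also lost with median-of-ratios (0.0507) and upper quartile scaling (0.0503), with no filter (0.0706) and with a replicate block (0.0900).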

How the data were processed

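Column-purified total RNA of 24 cell line libraries went to an outside company for sequencing, per the labels' protocols. The counts in the single table that the authors deposited are raw, 1 row for each gene symbol, and all 24 columns matched a sample title (0 unmatched columns). HISAT2, StringTie and GRCh37 are named in the submitters' processing notes without role or version. Whether counting used strand is not given in the sources used here.

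Counts were tested per line over 12 libraries in R 4.3.3 with edgeR 4.0.16: filterByExpr, TMM scaling, group as the only term, quasi-likelihood F-tests (two-sided) and Benjamini-Hochberg adjustment over all genes tested, called under 0.05. A fit over 24 libraries gave the parental lines and the 3 line contrasts (J82 minus RT-112). Levels are CPM with TMM factors over 24 libraries. Kilobases come from the merged exons of GENCODE 29. Promoters come from RefSeq; 34000 of 35993 symbols (94.5%) matched its gene table, used for neighbours. Floors are 3 counts and intervals 95%; both cover counting error only. The fit was tested on simulated data. Python 3.11.15 with matplotlib 3.10.9 drew the figures.

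Members and lists were chosen with earlier results of these data known. Named beside the members: CD44; per list, up to 3 genes that J82 and RT-112 both called in 1 direction, ranked by the smaller of their changes, in 4 comparisons (CD44 High and CD44v6 against CD44 Low, CD44 Low and CD44v6 against parental), and per line the gene with the largest called change in each direction for CD44 High against CD44 Low; and 3 genes most like a member called in at least 4 within-line comparisons, among genes whose log2 CPM averages 3 or more in each line. Genes named otherwise are said to be so.

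Alternatives were median-of-ratios and upper quartile scaling, no filter, a mean of at least 50 counts, DESeq2 1.42.0, the 2 groups alone, all 24 libraries, a replicate block, each library left out in turn, and, chosen after seeing the data, both RT-112 libraries that stand apart left out. Replicate numbers were checked for pairing by the correlation of same-numbered libraries' deviations: all 3 exceeded 0.1 only for J82 CD44v6 against CD44 High (0.11, 0.11 and 0.25), and this comes from the data, not the labels. Replicates of a group differed by 6.03 to 58.7 in chi-square per degree of freedom, so none was a repeated deposit. RDXP1, RDXP2 and EZR-AS1 had at most 17 counts in any library.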

Additional observations from a re-analysis of the deposited data

Results flagged for a closer look

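These results differed between the lines by the contrast over all 24 libraries (J82 minus RT-112, log2, edgeR adjusted p under 0.05). MET differed by 0.56 for CD44 High against CD44 Low and by 0.52 for CD44v6 against CD44 Low. For the same 2 comparisons, PLAU differed by 2.23 and 1.89, SLC9A3R2 by 2.58 and 2.39, and SPINT2 by 1.56 and 0.87. SPINT1 differed by 3.16 and 3.06, with a J82 CD44 Low level of 0.103 ± 0.179 CPM; without J82 CD44 Low replicate 2 the SPINT1 values were 7.37 and 7.27. CBLB differed by -1.66 and -1.12, ITGB4 by -2.24 and -1.86, and NRP1 by -1.06 and -0.93. For CD44v6 against CD44 Low alone, ROCK1 differed by 1.27 and ROCK2 by 1.75. The second NRP1 value was called in 6 of 24 fits that left out 1 library: those without any RT-112 CD44 High library, RT-112 CD44v6 replicate 1 or 2, or RT-112 CD44 Low replicate 3. No explanation was tested for any of these.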

How the results depend on the processing

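Counts of member calls are given here without the share of all genes called, which also changes with the setting. They therefore do not set the members apart from other genes. Within J82 the count was 7 over 6 comparisons. It was 11 with DESeq2, 4 in a fit over all 24 libraries and 5 to 8 when 1 library was left out. Within RT-112 the count was 4, of which 2 are the MSN calls set aside above. It was 2 with no filter, 0 on the 2 groups alone and 2 with a replicate block. When 1 library was left out it was 1 to 4, the lowest without CD44 Low replicate 1. A mean of at least 50 counts removed MSN in RT-112, which left 2 calls, MET and EZR. Between the parental lines the count was 4, and 3 or 4 without 1 library. For the contrasts between the lines it was 4, of which 2 are the MSN calls set aside, and 2 to 5 without 1 library. It was 2 without RT-112 CD44 Low replicate 3 or CD44v6 replicate 3. The cause of the other changes was not tested. Over 1622 recalculations of 74 member results, 1516 kept their direction and their side of the threshold, 55 lost a call, 21 gained a call and 30 turned direction. Those 30 were called neither before nor after. Only the 7, 4, 4 and 4 results called above could lose a call. Most of the 1516 are thus results that were not called and stayed so, and they do not measure how stable the calls are. Where the replicate number was used as a block, it added MSN and EZR calls in J82, removed the EZR call and 1 of the MSN calls set aside in RT-112, and changed no MET call; the numbers share only a label in the comparisons where the pairing was not seen. With 3 libraries a group, small differences can be missed, and MSN in RT-112 and NF2 in J82 are limited by counts near 0.

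Differences that turned direction were, when 1 library was left out: for RDX in RT-112, CD44 High from CD44 Low (-0.38 to 0.20), CD44 High against parental (-0.48 to 0.10) and CD44v6 against CD44 High (-0.47 to 0.0915); for the RDX contrasts of the lines, CD44 High against CD44 Low (-0.11 to 0.47) and CD44v6 against parental (-0.0382 to 0.35); for EZR, J82 CD44v6 against CD44 High (-0.18 to 0.0562) and RT-112 CD44v6 against parental (-0.0469 to 0.21). The same held for MET in RT-112 CD44v6 against parental (-0.0254 to 0.14); for MSN in J82, CD44 High against parental (-0.0332 to 0.0923), CD44v6 against CD44 High (-0.16 to 0.00743) and CD44v6 against parental (-0.14 to 0.0236); and for NF2 in RT-112, CD44 High against parental (-0.0826 to 0.0546), CD44v6 against CD44 High (-0.0343 to 0.11) and CD44v6 against parental (-0.0193 to 0.0521). NF2 in CD44 High against parental was also -4.53783e-05 with upper quartile scaling, -0.0128 with no filter and -0.00890 on the 2 groups alone.

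Without both RT-112 libraries that stand apart, CD44v6 against CD44 High turned to 0.26 for RDX, 0.0652 for MET and -0.0115 for NF2, EZR in CD44v6 against parental to -0.0475 and the RDX contrast of that step to -0.0381. Of the other genes, leaving out 1 library turned the CD44 contrast of CD44v6 against CD44 Low (-0.35 to 0.0261), EGFR in J82 CD44 High (-0.19 to 0.17) and CD44v6 (-0.0863 to 0.51) against CD44 Low, SELPLG in the same 2 J82 comparisons (-0.67 to 0.15 and -0.51 to 0.31), STK3 in J82 CD44v6 against CD44 Low (-0.0597 to 0.0529), ROCK1 in J82 CD44 High against CD44 Low (-0.0446 to 0.10) and RT-112 CD44 Low against parental (-0.0853 to 0.13), and ROCK2 in RT-112 CD44 High from CD44 Low (-0.57 to 0.0367). None of these differences was called by edgeR.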
